A study of Mus musculus with 12 samples.

Results

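Glycolysis in the mouse heart and in heart organoids (HOs) was described by 10 genes, Slc2a1, Hk1, Hk2, Pfkm, Pfkl, Aldoa, Pgam2, Eno3, Ldha and Ldhb, chosen by name from the 26190 genes of the expression table. The choice covers glucose entry, the committed steps and the lactate end of the pathway, with pairs of muscle and non-muscle isoforms. The data were RNA-seq libraries of total RNA from 4 groups of 3 replicates, 12 in all. One pair of groups was the atria and the ventricles of C57BL/6 embryos at E11.5 (E11.5H), and the other pair was cut from HOs at day 13 of culture, the atrium-like part and the ventricle-like part, which the labels also list as C57BL/6. The labels list no engineered allele in any group. HOs were grown from embryoid bodies of mouse embryonic stem cells (ESCs) on a laminin and entactin complex in medium with FGF4, and received BMP4, BIO (an inhibitor of the kinase GSK3) and LIF later in culture. According to the methods, the study's ESC lines came from C57BL/6 and from an F1 hybrid of C57BL/6 and JF1, and which line gave which library is not given in the sources used here. The labels do not say whether atrium-like and ventricle-like libraries of the same number came from the same HOs. Levels are in FPKM, fragments normalized for transcript length and library size as deposited, and differences are log2 fold changes of fragment numbers from edgeR with their standard errors (SE).

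Glycolysis turns glucose into pyruvate in the cytosol. Glucose enters through a transporter, is trapped by hexokinase, is committed to breakdown by phosphofructokinase, and is split by aldolase, and the later steps run through phosphoglycerate mutase and enolase to pyruvate. Lactate dehydrogenase interconverts pyruvate and lactate. Most steps have a broadly expressed isoform and one that is enriched in striated muscle, liver or brain, and the early embryonic heart is known for relying on glycolysis more than the adult heart does. Several of the genes, Ldha, Hk2 and Slc2a1 among them, are textbook targets of hypoxia-inducible factor, which binds DNA at the core letters ACGTG.

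The 250 bases upstream of the annotated transcript start (RefSeq, GRCm38.p6) were read for all 10 genes, in 17 windows because some genes have several starts. They are shown for 4 genes that carry the contrasts described here, the lactate dehydrogenase pair, Hk2, which was higher in HOs, and Pgam2, which had a lower level in atrium-like parts. Capitals mark ACGTG on either strand (read as CACGT on the other strand), CAGCTG (an E box, the same on both strands) and a Mef2 consensus.
Ldha: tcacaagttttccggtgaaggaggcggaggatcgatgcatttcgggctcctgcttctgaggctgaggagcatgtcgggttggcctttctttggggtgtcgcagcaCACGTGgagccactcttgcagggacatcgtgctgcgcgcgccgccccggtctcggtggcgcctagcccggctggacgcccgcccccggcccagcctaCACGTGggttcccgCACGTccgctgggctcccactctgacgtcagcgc
Ldhb: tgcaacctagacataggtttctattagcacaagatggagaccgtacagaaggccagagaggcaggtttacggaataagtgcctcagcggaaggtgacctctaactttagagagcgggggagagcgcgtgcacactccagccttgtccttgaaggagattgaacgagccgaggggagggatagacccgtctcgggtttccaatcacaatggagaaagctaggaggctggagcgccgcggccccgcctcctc
Hk2: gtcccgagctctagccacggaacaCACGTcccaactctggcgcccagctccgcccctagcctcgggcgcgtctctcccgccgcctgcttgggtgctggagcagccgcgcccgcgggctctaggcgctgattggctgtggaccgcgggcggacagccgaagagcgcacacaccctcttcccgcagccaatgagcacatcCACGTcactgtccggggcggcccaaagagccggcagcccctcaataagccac
Pgam2: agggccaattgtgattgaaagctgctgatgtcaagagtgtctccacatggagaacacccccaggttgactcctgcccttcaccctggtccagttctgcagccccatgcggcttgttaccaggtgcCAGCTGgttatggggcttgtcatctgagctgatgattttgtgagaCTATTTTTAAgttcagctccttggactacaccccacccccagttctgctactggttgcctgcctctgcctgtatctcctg
The Ldha window lies at chr7:46845554-46845803 on the plus strand, and the others lie on the minus strand at chr6:142507958-142508207 (Ldhb), chr6:82774455-82774704 (Hk2) and chr11:5803797-5804046 (Pgam2). The Ldha window holds 5 ACGTG matches on both strands, which overlap into 3 runs at 145 to 140, 48 to 43 and 34 to 30 bases upstream. The Hk2 window holds 2, at 226 to 222 and 52 to 48 bases upstream, and the Ldhb window holds no match of the 3 motifs. In the Pgam2 window CAGCTG lies 125 to 120 and the Mef2 consensus 80 to 71 bases upstream. Of all 32851 windows of this length, 16.6% hold ACGTG, 13% hold CAGCTG and 2.92% hold the Mef2 consensus. Among the 10 genes, ACGTG was found in 7 of 17 windows, from 5 genes (Slc2a1, Hk2, Ldha, Aldoa and Pfkm), and CAGCTG and the Mef2 consensus in Pgam2. The 2 Aldoa windows with a match overlap and hold the same site, and a further Ldha window, at chr7:46846832-46847081, holds no match. The shares over all windows are per window, so the count of genes cannot be set against them. A match describes letters and no binding was measured. In GRCm38 the other 6 genes span chr4:119108745-119137329 (Slc2a1), chr10:62268855-62379908 (Hk1), chr15:98092589-98132447 (Pfkm), chr10:77986949-78009807 (Pfkl), chr7:126795234-126800447 (Aldoa) and chr11:70657176-70662513 (Eno3).

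All 10 genes passed the filter for low counts in every comparison. Library totals ran from 23971258 to 30540993 fragments. The tissue labels were checked with marker lists. All 16 cardiomyocyte genes were detected in every library, but their summed level was 40756 to 47870 CPM (counts scaled to a common library size) in atria, 45558 to 49163 in ventricles, 1052 to 3301 in atrium-like parts and 3719 to 11182 in the ventricle-like ones. Of 9 erythroid genes tested, 8 were lower in each HO part than in the matching chamber, and HO libraries summed to at most 24.2 CPM against 5057 or more in E11.5H. Genes of hepatocytes and visceral endoderm (12 in the list) summed to 34.2 to 45.1 CPM in E11.5H, against 239.8 to 12507 in ventricle-like parts and 1193 to 32042 in atrium-like ones, and HO libraries lay above every E11.5H library for this list. Atrium-like replicate 2 and ventricle-like replicate 2 stood apart from the other HO libraries in skeletal muscle genes (mean log2 CPM of 3.17 and 2.87, against -2.81 or less) and endothelial genes (4.26 and 3.72, against 0.57 or less). By summed CPM they stood apart in skeletal muscle genes too (159.5 and 155.8, against at most 21.8). For endothelial genes the sums were 260 and 157 CPM, against 196 CPM in ventricle-like replicate 1, so that separation depended on the measure. In bulk RNA, fewer cells of a type and less RNA per cell cannot be told apart.

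Ldha and Aldoa were the most abundant of the 10 genes in each group by mean FPKM, and Hk2 was the least abundant in 3 groups, with Pfkm last in atrium-like parts. In atria the order of mean FPKM was Ldha 971, Aldoa 863, Pgam2 706, Ldhb 297, Slc2a1 232, Eno3 169, Hk1 55.3, Pfkl 55.0, Pfkm 36.5 and Hk2 5.67, and the libraries of Ldha and Aldoa, of Ldhb and Slc2a1, and of Hk1 and Pfkl overlapped. In atrium-like parts Slc2a1 (mean 311 FPKM) came next after Aldoa (1146), and from Pfkl (92.3) down through Ldhb (72.5), Pgam2 (60.7), Eno3 (23.9), Hk2 (18.1), Hk1 (17.6) and Pfkm (13.9) each gene overlapped the next. The 10 genes together took 0.615 to 0.811% of the fragments in atria, 0.997 to 1.04% in ventricles, 0.680 to 0.940% in atrium-like parts and 0.894 to 1.09% in the ventricle-like ones.

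**Figure D1:**
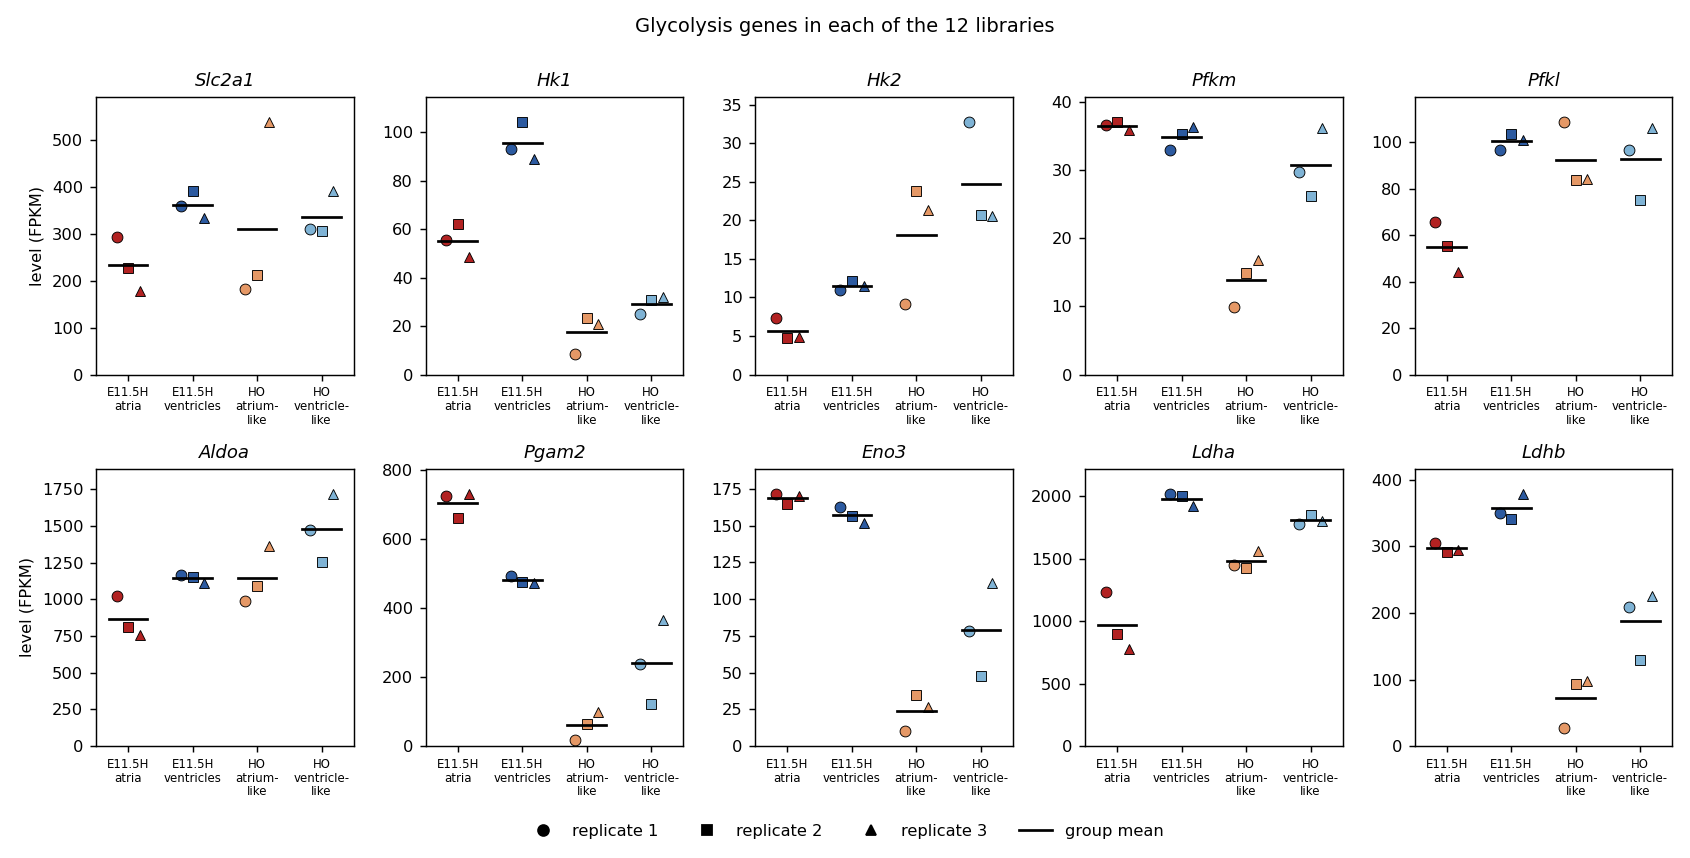
Level of each of the 10 genes (y axis, FPKM, from 0) in the 12 libraries by group (x axis). Each point is 1 library, its shape gives the replicate, and the line is the group mean. Pgam2, Eno3 and Ldhb sit lower in every HO library than in every E11.5H library, while Hk2 and Aldoa in HOs reach levels above those of E11.5H.

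Between the chambers of E11.5H, most of the 10 genes were lower in atria than in ventricles. Of the 10 genes, 7 were lower (Slc2a1, Hk1, Hk2, Pfkl, Aldoa, Ldha and Ldhb), 1 was higher (Pgam2) and 2 were not called (Pfkm and Eno3), with calls at an adjusted p under 0.05 over all genes. For comparison, 13.6% of the 14536 genes tested were called, 7.16% as lower and 6.47% as higher in atria. The median log2 fold change of the 10 genes was -0.59, against 0.01 over all genes. Markers of other cells moved with the chambers. Of 9 erythroid genes tested 9 were below 0 in atria (3 called, median -1.94), with 53421 CPM in ventricles replicate 3 against 8107 and 13443 CPM in the other ventricles and 5057 to 9590 CPM in atria. Of 10 macrophage genes 10 were above 0 in atria (6 called), with 68.6 to 127 CPM in atria and 29.5 to 39.9 CPM in ventricles. Without ventricles replicate 3, 8 of the 10 genes were called. Library sizes taken without hemoglobin genes gave the values of the main fit here. TMM scaling was estimated again after that change, so this setting cannot show an effect of blood content.

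Slc2a1, the GLUT1 glucose transporter, was at 293, 227 and 178 FPKM in atria and at 359, 392 and 334 FPKM in ventricles. All atria lay below all ventricles, by a log2 fold change of -0.70 (SE 0.15, edgeR adjusted p = 0.011). Hk1, the broadly expressed hexokinase, was at 55.4, 62.0 and 48.5 FPKM in atria and at 93.3, 104 and 89.1 FPKM in ventricles. The groups were apart for this hexokinase too, by -0.86 on the log2 scale (SE 0.09, edgeR adjusted p = 1.65e-04). Hk2, the insulin-regulated hexokinase of muscle, was scarce, at 7.37, 4.75 and 4.89 FPKM in atria and 10.98, 12.1 and 11.4 FPKM in ventricles. Its log2 fold change of -1.09 (SE 0.17, edgeR adjusted p = 0.0018) was among the largest of the 10 genes here.

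The phosphofructokinase isoforms went different ways. Pfkl, the liver-type subunit, was at 65.6, 55.5 and 43.9 FPKM in atria and at 96.9, 104 and 101 FPKM in ventricles. It was lower in every atrial library, by -0.94 on the log2 scale (SE 0.13, edgeR adjusted p = 8.35e-04). Pfkm, the muscle-type subunit, was at 36.6, 37.1 and 35.9 FPKM in atria and at 33.0, 35.3 and 36.4 FPKM in ventricles. The groups overlapped, and the log2 fold change of -0.01 (SE 0.08) did not pass the test (edgeR adjusted p = 0.98). Pfkm overlaps Senp1 on the opposite strand over 1156 bases, and since the use of strand in counting is not given in the sources used here, its fragments could include some of that gene. The same holds for Hk1, which overlaps the antisense gene Hk1os over 23112 bases, for Hk2 (Gm17034, 3007 bases) and for Slc2a1 (Gm12867 and Gm12868, 710 and 3581 bases).

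Among the enzymes of the lower steps, Aldoa, the aldolase of muscle and many other tissues, was at 1020.45, 810.2 and 759 FPKM in atria and at 1165, 1148 and 1113 FPKM in ventricles. Every atrial library was below every ventricular one, by -0.47 on the log2 scale (SE 0.10, edgeR adjusted p = 0.012), and Aldoa overlaps Fam57b on the opposite strand over 2780 bases. The call for Aldoa was lost without atria replicate 2 (edgeR adjusted p = 0.053), atria replicate 3 (0.051) or ventricles replicate 2 (0.050), and that for Slc2a1 without atria replicate 2 (0.053) or ventricles replicate 2 (0.054). Pgam2, the muscle phosphoglycerate mutase, had the opposite direction, at 724, 663 and 731 FPKM in atria and 492, 476 and 473 FPKM in ventricles. Its log2 fold change was 0.49 (SE 0.07, edgeR adjusted p = 8.94e-04), with no overlap. Eno3, the muscle enolase, was at 172, 165 and 170.5 FPKM in atria and 163, 157 and 152 FPKM in ventricles. The values did not overlap, but the log2 fold change was only 0.04 (SE 0.06, edgeR adjusted p = 0.76).

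Lactate dehydrogenase showed the largest difference in FPKM. Ldha, the subunit that predominates in skeletal muscle, was at 1234, 899 and 780.5 FPKM in atria and 2018, 1998 and 1923 FPKM in ventricles, a log2 fold change of -1.09 (SE 0.14, edgeR adjusted p = 6.50e-04). Ldhb, the subunit that predominates in adult heart, was at 305, 291 and 295 FPKM in atria and 349.7, 341 and 379 FPKM in ventricles, a log2 fold change of -0.34 (SE 0.07, edgeR adjusted p = 0.013). Both subunits were lower in every atrial library. Atria replicate 1 was the highest atrial library for Slc2a1, Hk2, Pfkl, Aldoa, Ldha and Ldhb. When libraries were scaled to the cardiomyocyte genes, Aldoa (0.02) and Ldhb (0.17) had a log2 fold change above 0 and neither was called, Slc2a1 lost its call (-0.21, edgeR adjusted p = 0.14), and Pfkm and Eno3 were called as higher in atria (0.50 and 0.54, edgeR adjusted p = 0.0038 and 0.0015). In 1 fit over all 12 libraries, with a biological coefficient of variation of 0.551, the log2 fold changes were close to those above (-0.87 for Hk1 and -1.11 for Ldha), but Ldha alone of the 10 genes was called (edgeR adjusted p = 0.049).

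The other genes of the pathway, a list of 28 enzymes, transporters and regulators, followed in E11.5H. Of 23 tested, 10 were lower in atria, 0 were higher and 13 were not called, with a median log2 fold change of -0.38. Over all genes tested, 7.16% were called lower and 6.47% higher in atria. The 10 were Eno1, Tpi1, Gapdh, Gpi1, Pkm, Pfkp, Pgam1, Pgk1, Slc2a3 and Slc16a3. Slc2a3, the GLUT3 transporter (-1.14, SE 0.25, edgeR adjusted p = 0.012), and Slc16a3, the lactate exporter MCT4 (-1.13, SE 0.13, edgeR adjusted p = 3.30e-04), had the largest differences. Of 14 hypoxia response genes, 8 were lower in atria, among them Bnip3, a mitophagy receptor (-1.47, SE 0.20), and Vegfa, the angiogenic growth factor (-1.02, SE 0.17), and 1 was higher, Adm, the vasodilator peptide adrenomedullin (2.13, SE 0.21, edgeR adjusted p = 1.43e-04). The part of the hypoxia response in the glycolysis values was not tested.

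**Figure D2:**
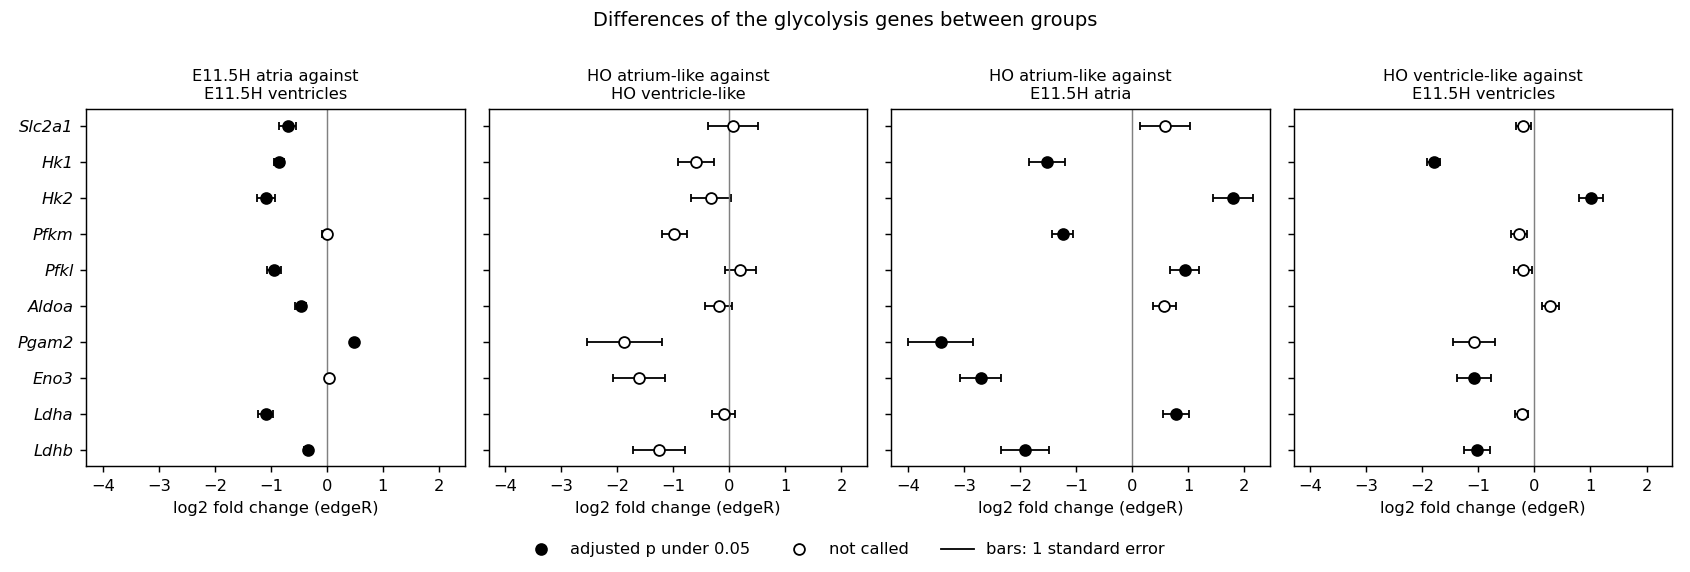
Log2 fold change of each gene (x axis, edgeR) in the 4 comparisons of groups (panels, first group against second). Bars are 1 standard error, filled points passed an adjusted p under 0.05 over all genes, and open points did not. In E11.5H 8 of 10 genes passed with small errors, between HO parts 0 passed, and Pgam2 and Eno3 fell furthest in atrium-like parts against atria, a direction that turned to above 0 when libraries were scaled to cardiomyocyte genes.

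Between the HO parts none of the 10 genes was called by edgeR, and neither was any other of the 15703 genes tested (0%). At an unadjusted p under 0.05 there were 889 genes in all and 4 of the 10 (Pfkm, Eno3, Pgam2 and Ldhb), and DESeq2 called 62 genes in all and 0 of the 10. The biological coefficient of variation was 0.677 between HO libraries and 0.211 between E11.5H libraries. All values that follow for the HO parts therefore stand without a call.

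Pgam2, Eno3, Pfkm and Ldhb were lower in every atrium-like library than in every ventricle-like library. Pgam2 was at 17.1, 65.1 and 99.8 FPKM in atrium-like and at 238, 123 and 366 FPKM in ventricle-like parts. The groups did not overlap, and the log2 fold change was -1.87 (SE 0.67, edgeR adjusted p = 0.75). Eno3 was at 10.5, 34.9 and 26.4 FPKM and at 78.1, 48.0 and 111 FPKM, a log2 fold change of -1.61 (SE 0.46, edgeR adjusted p = 0.75). Pfkm was at 9.98, 14.9 and 16.9 FPKM and at 29.8, 26.3 and 36.2 FPKM, which gave -0.98 on the log2 scale (SE 0.23, edgeR adjusted p = 0.75). Ldhb, the heart lactate dehydrogenase subunit, was at 26.5, 93.6 and 97.4 FPKM and at 208, 129 and 225 FPKM, or -1.25 on the log2 scale (SE 0.47, edgeR adjusted p = 0.75). In each of these 4 genes atrium-like replicate 1 was the lowest of the 12 libraries, and this library also had the lowest cardiomyocyte genes (1052 CPM) and the highest hepatocyte and visceral endoderm genes (32042 CPM). Their part in the difference was not tested.

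Pfkl, Ldha, Aldoa, Slc2a1, Hk1 and Hk2 differed less between the HO parts, with log2 fold changes from -0.60 to 0.20. Pfkl was at 109, 83.9 and 84.2 FPKM in atrium-like and 96.9, 75.2 and 106 FPKM in ventricle-like parts, and the libraries overlapped (log2 fold change 0.20, SE 0.28). Ldha was at 1446, 1423 and 1563 FPKM and at 1776, 1848 and 1799 FPKM, without overlap but with a log2 fold change of only -0.10 (SE 0.21). Aldoa was at 988, 1089 and 1361 FPKM and at 1471, 1252 and 1718 FPKM, and the libraries overlapped (-0.19, SE 0.24). Slc2a1 was at 183, 211 and 538 FPKM in atrium-like against 309.7, 305 and 392 FPKM in ventricle-like parts. By the ratio of highest to lowest library in a group, it spread most among the genes of this paragraph. Atrium-like replicate 3 held the highest Slc2a1 of the 12 libraries, and without it the log2 fold change moved from 0.06 (SE 0.44) to -0.59. Hk1 was at 8.44, 23.4 and 20.9 FPKM and at 25.1, 30.7 and 31.9 FPKM without overlap (-0.60, SE 0.32), and Hk2 was at 9.09, 23.8 and 21.4 FPKM and at 32.8, 20.7 and 20.6 FPKM with overlap (-0.32, SE 0.35).

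Against atria, atrium-like parts had less Hk1, Pfkm, Pgam2, Eno3 and Ldhb and more Hk2, Pfkl and Ldha. Of the 10 genes, 5 were lower (Hk1, Pfkm, Pgam2, Eno3 and Ldhb), 3 were higher (Hk2, Pfkl and Ldha) and 2 were not called (Slc2a1 and Aldoa), beside 31.5% of 15418 genes called, 12.5% as lower and 19.0% as higher. The median log2 fold change was -0.33, against 0.06 over all genes. The sources used here do not say whether E11.5H and HO libraries were prepared together, so such a batch cannot be told apart from tissue, and each group serves in more than 1 comparison. All 8 called genes had atrium-like libraries that did not overlap those of atria. The share of all genes without overlap is not given here, so this adds nothing to the calls.

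Pgam2 fell most, from 706 ± 38.0 FPKM in atria to 60.7 ± 41.5 FPKM in atrium-like parts (mean ± SD of 3 libraries), a log2 fold change of -3.41 (SE 0.58, edgeR adjusted p = 0.0091). Eno3 fell from 169 ± 3.51 FPKM to 23.9 ± 12.4 FPKM, by 2.70 on the log2 scale (SE 0.37, edgeR adjusted p = 0.0051). Ldhb had a log2 fold change of -1.91 (SE 0.42, edgeR adjusted p = 0.019), Hk1 of -1.52 (SE 0.32, edgeR adjusted p = 0.017) and Pfkm of -1.23 (SE 0.19, edgeR adjusted p = 0.0064). In the same comparison 15 of the 16 cardiomyocyte genes were lower, with a median log2 fold change of -3.86, which is a larger fall than that of any of the 10 genes. When libraries were scaled to those genes, all 5 log2 fold changes turned above 0, from 0.18 for Pgam2 to 2.70 for Pfkm. The falls given here are relative to the total RNA of a library. The part of cardiomyocyte content in them was not tested.

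Among the genes that were higher, Hk2 had a log2 fold change of 1.80 (SE 0.35, edgeR adjusted p = 0.013), Pfkl of 0.94 (SE 0.25, edgeR adjusted p = 0.034) and Ldha of 0.78 (SE 0.24, edgeR adjusted p = 0.047). Their direction was the same when libraries were scaled to cardiomyocyte genes. That scaling moved the median log2 fold change over all genes from 0.06 to 4.08. Genes already above 0 could thus not turn, and the kept direction adds nothing to the calls. Ldha lost its call with library sizes taken without hemoglobin genes (edgeR adjusted p = 0.051) and without the low-count filter (0.057). With 1 library left out, Pfkl and Ldha each lost their call in 5 of 6 fits (edgeR adjusted p up to 0.13 and 0.18). Hk2 lost its call in 2 of them (up to 0.064). Aldoa (0.58, SE 0.21, edgeR adjusted p = 0.080) and Slc2a1 (0.59, SE 0.45, edgeR adjusted p = 0.35) did not pass, and without atrium-like replicate 3 Slc2a1 was at -0.08. The number of calls depended on single libraries. Without atria replicate 1, 2 or 3, 4, 3 and 3 of the 10 genes were called, with Pgam2, Eno3 and Pfkm called in each case, and without atrium-like replicate 1, 2 or 3 the number was 6, 9 and 6.

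Against ventricles, ventricle-like parts had less Hk1, Eno3 and Ldhb and more Hk2. Of the 10, 3 were lower (Hk1, Eno3 and Ldhb), 1 was higher (Hk2) and 6 were not called, beside 29.6% of 15094 genes called, 13.8% as lower and 15.7% as higher. The median log2 fold change was -0.25, against 0.09 over all genes. Hk1 differed most, with 95.5 ± 7.81 FPKM in ventricles and 29.2 ± 3.61 FPKM in ventricle-like parts, by -1.80 on the log2 scale (SE 0.12, edgeR adjusted p = 0.0012). Hk2 rose from a mean of 11.52 FPKM (SD 0.574) to 24.7 FPKM (SD 6.999), a log2 fold change of 1.01 (SE 0.22, edgeR adjusted p = 0.019). Hk1 and Hk2, which carry out the same reaction, thus went in opposite directions in both comparisons of HOs with E11.5H, except that Hk1 turned above 0 when libraries were scaled to cardiomyocyte genes.

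Eno3 (-1.08, SE 0.30, edgeR adjusted p = 0.040) and Ldhb (-1.02, SE 0.23, edgeR adjusted p = 0.023) were lower in ventricle-like parts, and Pgam2, with the same log2 fold change as Eno3 but more spread (-1.08, SE 0.38), did not pass (edgeR adjusted p = 0.076). Pfkm (-0.28, SE 0.15), Pfkl (-0.21, SE 0.16) and Slc2a1 (-0.20, SE 0.14) overlapped between the groups. Ldha (-0.22, SE 0.12) and Aldoa (0.28, SE 0.16) did not overlap but did not pass. Only Hk1 stayed called without any 1 of the ventricular libraries (1 of 10 genes called each time), and without ventricle-like replicate 1, 2 or 3 the number was 2, 6 and 7. Scaling to the cardiomyocyte genes, of which 14 of 16 were lower here with a median log2 fold change of -2.69, turned Eno3 (1.65), Ldhb (1.78) and Hk1 (1.12) above 0.

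Whether the chamber difference itself differed between HOs and E11.5H was tested as an interaction over all 12 libraries. None of the 10 genes passed with edgeR, of 16494 genes of which 0.152% were called. At an unadjusted p under 0.05 there were 1928 of the 16494 genes and 5 of the 10. Those were Pgam2 (-2.36, SE 0.73, edgeR adjusted p = 0.28), Eno3 (-1.65, SE 0.50, edgeR adjusted p = 0.28), Pfkm (-0.98, SE 0.24, edgeR adjusted p = 0.21), Pfkl (1.13, SE 0.32, edgeR adjusted p = 0.25) and Ldha (0.99, SE 0.25, edgeR adjusted p = 0.21). DESeq2 called these 5 genes among 543 in all, with adjusted p from 0.008 for Ldha to 0.043 for Eno3.

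Isoform ratios were formed within each library from the FPKM values of both genes, so they do not depend on how libraries are scaled. Pfkm to Pfkl, the muscle against the liver-type phosphofructokinase, was 0.558, 0.669 and 0.816 in atria and 0.341, 0.340 and 0.361 in ventricles. Pfkl was thus the more abundant isoform in every E11.5H library, and atria held a higher share of Pfkm without overlap. In HOs the order was the other way round, with ratios of 0.0917, 0.177 and 0.200 in atrium-like and 0.307, 0.349 and 0.341 in ventricle-like parts. The ratio of ventricle-like parts overlapped that of ventricles (difference of -0.06 on the log2 scale, SE 0.06, exact permutation p = 0.60, two-sided). Atrium-like parts lay 4.54-fold below atria (log2 difference -2.18, SE 0.38), with an exact permutation p of 0.10, the smallest that 3 against 3 libraries can give.

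Ldhb to Ldha, the heart against the skeletal muscle subunit of lactate dehydrogenase, was 0.247, 0.323 and 0.377 in atria and 0.173, 0.171 and 0.197 in ventricles. Ldha was the more abundant in all 12 libraries. In HOs the ratio was 0.0183, 0.0658 and 0.0623 in atrium-like and 0.117, 0.0695 and 0.125 in ventricle-like parts. The 4 groups did not overlap in any of the 4 comparisons, with log2 differences of 0.79 (SE 0.19) between chambers of E11.5H, -1.25 (SE 0.66) between HO parts, -2.88 (SE 0.63) between atrium-like parts and atria and -0.84 (SE 0.28) between ventricle-like parts and ventricles. Each had the smallest exact permutation p of 0.10 (0.12 after adjustment over the 20 tests of 5 ratios).

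The muscle to non-muscle ratio was higher in atria of E11.5H and lower in atrium-like parts of HOs for 2 further pairs. Pgam2 to Pgam1, the muscle against the broadly expressed mutase, was 2.11, 2.33 and 2.85 in atria, 1.17, 1.16 and 1.17 in ventricles, 0.0558, 0.192 and 0.270 in atrium-like and 0.507, 0.297 and 0.754 in ventricle-like parts. Pgam2 was the more abundant isoform in every E11.5H library and the less abundant in every HO library. Eno3 to Eno1, the muscle against the broadly expressed enolase, ranged over 0.118 to 0.150 in atria and 0.0914 to 0.0945 in ventricles, and over 0.00777 to 0.0252 in atrium-like against 0.0293 to 0.0569 in ventricle-like parts. Hk2 to Hk1 did not overlap between tissues but overlapped between chambers, with 0.0766 to 0.133 in E11.5H against 1.02 to 1.08 (atrium-like) and 0.646 to 1.30 (ventricle-like) in HOs. Hk1 was thus well above Hk2 in every E11.5H library and the ratio lay nearer 1 in every HO library, with a log2 difference of 3.36 (SE 0.23) for atrium-like parts against atria and 2.78 (SE 0.33) for ventricle-like parts against ventricles, each with the smallest exact permutation p of 0.10 (0.12 adjusted).

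The difference of the chamber differences was then tested by an exact permutation of the chamber labels within each tissue, a test chosen after seeing the data. Since 4 of the ratios had opposite, non-overlapping chamber orders in the tissues, their p restates that order. The difference was -2.12 on the log2 scale for Pfkm to Pfkl, -2.04 for Ldhb to Ldha, -1.96 for Eno3 to Eno1 and -2.81 for Pgam2 to Pgam1. Each of these 4 had an exact permutation p of 0.005, the smallest that the 400 arrangements can give (0.0063 adjusted over 5 ratios), and Hk2 to Hk1 had 0.59 with p = 0.165. The arrangements assume no chamber difference in either tissue, so a low p does not separate a difference between tissues from a chamber difference within one of them. Cardiomyocyte genes went the same way as Pfkm, Ldhb, Eno3 and Pgam2 in HOs (log2 fold change below 0 in 16 of 16 between atrium-like and ventricle-like parts, none called). They were above 0 in 6 of 16 between atria and ventricles of E11.5H. Their part in the ratios was not tested.

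**Figure D3:**
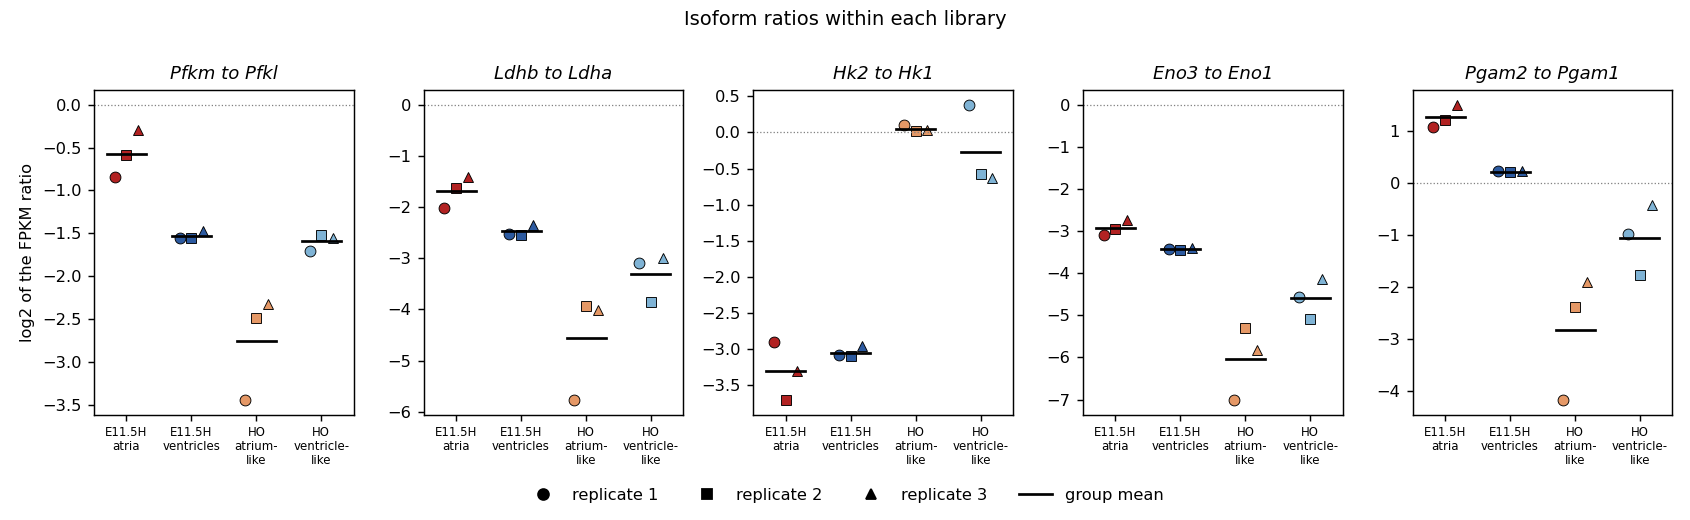
Log2 of the FPKM ratio of 2 isoforms (y axis) within each of the 12 libraries, by group (x axis), for 5 pairs. Points are libraries, shapes are replicates, lines are group means, and the dotted line marks equal levels. Pfkm to Pfkl, Ldhb to Ldha, Eno3 to Eno1 and Pgam2 to Pgam1 are highest in E11.5H atria and lowest in atrium-like parts, while Hk2 to Hk1 separates HOs from E11.5H.

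Across the HO libraries the muscle isoforms followed the cardiomyocyte genes. From the lowest to the highest of the 6 HO libraries in mean log2 CPM of those genes (5.02 to 8.50), Pgam2 went from 17.1 to 366 FPKM and Ldhb from 26.5 to 225 FPKM, each with its lowest and highest value at these ends. The same held for Aldoa (988 to 1718 FPKM) and the broadly expressed Hk1 (8.44 to 31.9 FPKM). Hk2 went from 9.09 to 20.6 FPKM between these ends but was highest in ventricle-like replicate 1 (32.8 FPKM). Ldha (1423 to 1848 FPKM) and Pfkl (75.2 to 109 FPKM) stayed within narrower ranges over the same libraries. Over all 12 libraries, which share group and tissue and are no independent points, the genes most like Pgam2 by Pearson correlation of log2 CPM were Tnni3, cardiac troponin I (r = 0.993), Hspb2 (0.986) and Cox7a1 (0.983). Those most like Ldha were Pkm, Tpi1 and Pgam1, further glycolysis enzymes (r = 0.961, 0.929 and 0.926). Those most like Eno3 were E2f6, Rcsd1 and Cap2 (r = 0.995, 0.993 and 0.993). For Slc2a1 they were Gtf2e2, Eif4ebp1 and Prelid2, with lower values (0.929, 0.888 and 0.887).

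**Figure D4:**
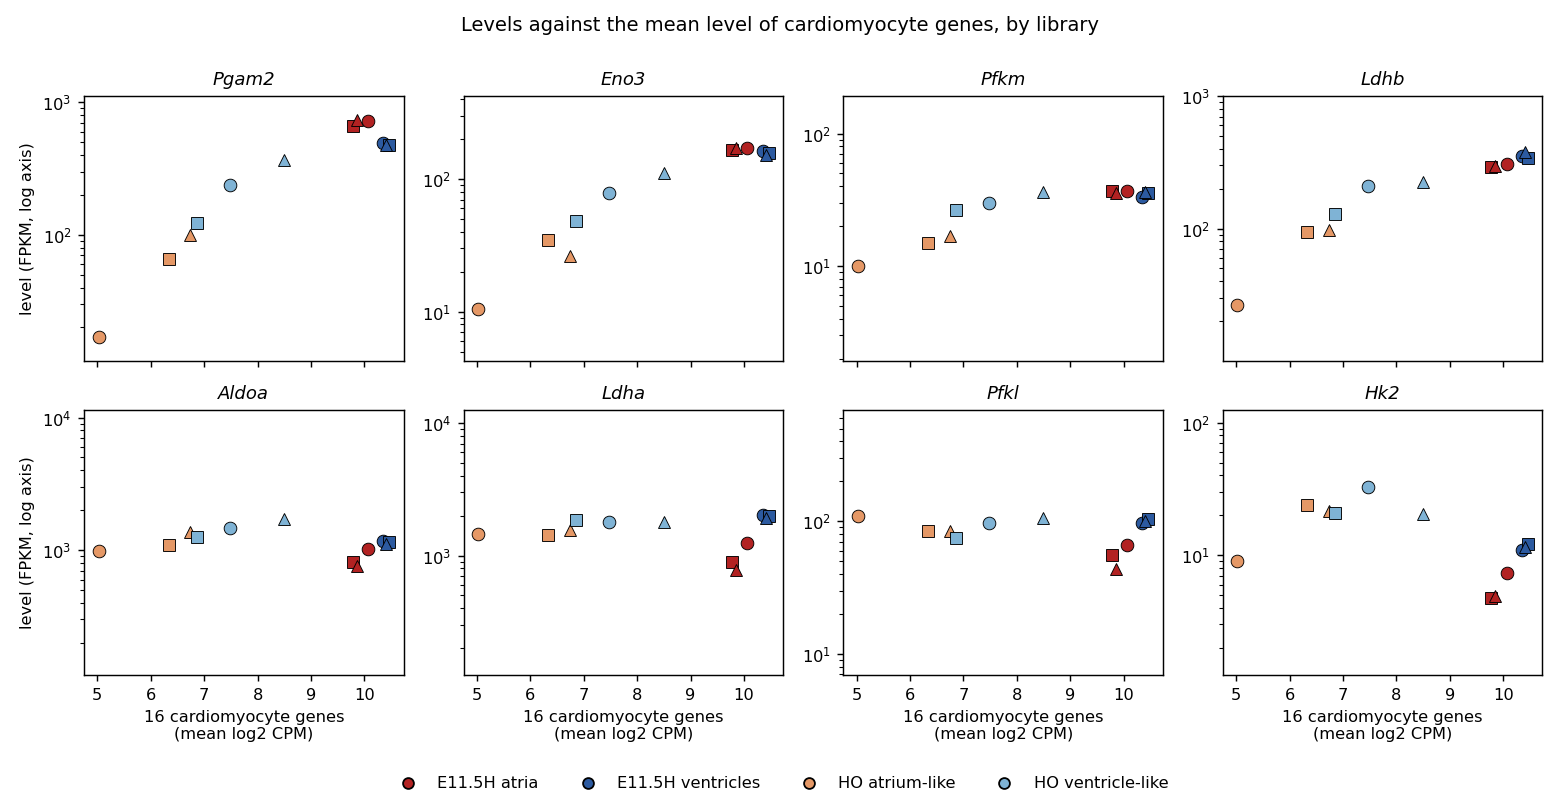
Level of 8 of the genes (y axis, FPKM on a log axis with the same span in each panel) against the mean log2 CPM of 16 cardiomyocyte genes (x axis) in the 12 libraries. Circles, squares and triangles are replicates 1, 2 and 3 and colours are groups. Pgam2, Eno3, Pfkm and Ldhb span a wide range over the HO libraries, with the lowest value at the lowest cardiomyocyte level, and Ldha and Pfkl span a narrow one.

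The other genes of the pathway were compared between HOs and E11.5H as well. Of 26 tested between atrium-like parts and atria, 12 were higher, 1 was lower and 13 were not called (median log2 fold change 1.26), and of 24 tested between ventricle-like parts and ventricles, 8 were higher, 1 was lower and 15 were not called (median 0.52). Over all genes tested, 19.0% were called higher and 12.5% lower in atrium-like parts, and 15.7% and 13.8% in ventricle-like parts. The common enzymes Eno1, Pgam1, Pkm, Tpi1, Gapdh and Pgk1 were not called in either comparison, and Gpi1, glucose phosphate isomerase, was higher in both (0.76, SE 0.17, edgeR adjusted p = 0.018, and 0.55, SE 0.16, edgeR adjusted p = 0.045). Pfkfb3 and Pfkfb4, which make the activator of phosphofructokinase, were higher in both, with log2 fold changes of 2.41 (SE 0.41) and 3.44 (SE 0.54) in atrium-like and of 2.03 (SE 0.16) and 2.60 (SE 0.39) in ventricle-like parts. Aldoc, the brain-type aldolase, was higher by 2.49 (SE 0.29) and 2.26 (SE 0.19). Slc2a4, the insulin-responsive GLUT4 transporter of muscle, was the gene that was lower in both (-2.76, SE 0.78, and -2.41, SE 0.29). Eno2, the neuronal enolase, was higher by 2.39 (SE 0.48) and 3.12 (SE 0.38), and Pfkfb2, a further gene of the Pfkfb family, by 1.76 (SE 0.47) and 1.33 (SE 0.35). For each of these 7 genes the edgeR adjusted p was at most 0.045 in both comparisons. Among the genes called in only 1 comparison were Slc2a3 (2.69, SE 0.75), Slc2a2, the GLUT2 transporter, and Pklr, the pyruvate kinase of liver and red cells, in atrium-like parts. Hk3, a hexokinase known from blood cells, was called in ventricle-like parts only. The 4 regulators called as higher in both comparisons were Pfkfb2, Pfkfb3, Pfkfb4 and Fbp2.

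Several genes of the pathway were nearly absent from E11.5H and present in HOs. Fbp2, the fructose bisphosphatase of muscle, which opposes phosphofructokinase, was at 0 to 0.116 FPKM in E11.5H, 258, 29.0 and 81.3 FPKM in atrium-like and 6.89, 0.231 and 59.3 FPKM in ventricle-like parts. Hkdc1, a hexokinase-related gene, was at 0.116 to 0.826 FPKM in E11.5H, at 37.4, 20.6 and 28.1 FPKM in atrium-like and at 0.693, 0.281 and 17.5 FPKM in ventricle-like parts. In ventricle-like parts these genes were highest in replicate 3, the library with the highest hepatocyte and visceral endoderm genes of its group (12507 CPM, against 815 and 239.8). Gut epithelium genes also moved with them, at 12832, 2539 and 8930 CPM in atrium-like and 1914, 1104 and 5513 CPM in ventricle-like parts, against 144 to 196 CPM in E11.5H. The part of both lists was not tested.

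**Figure D5:**
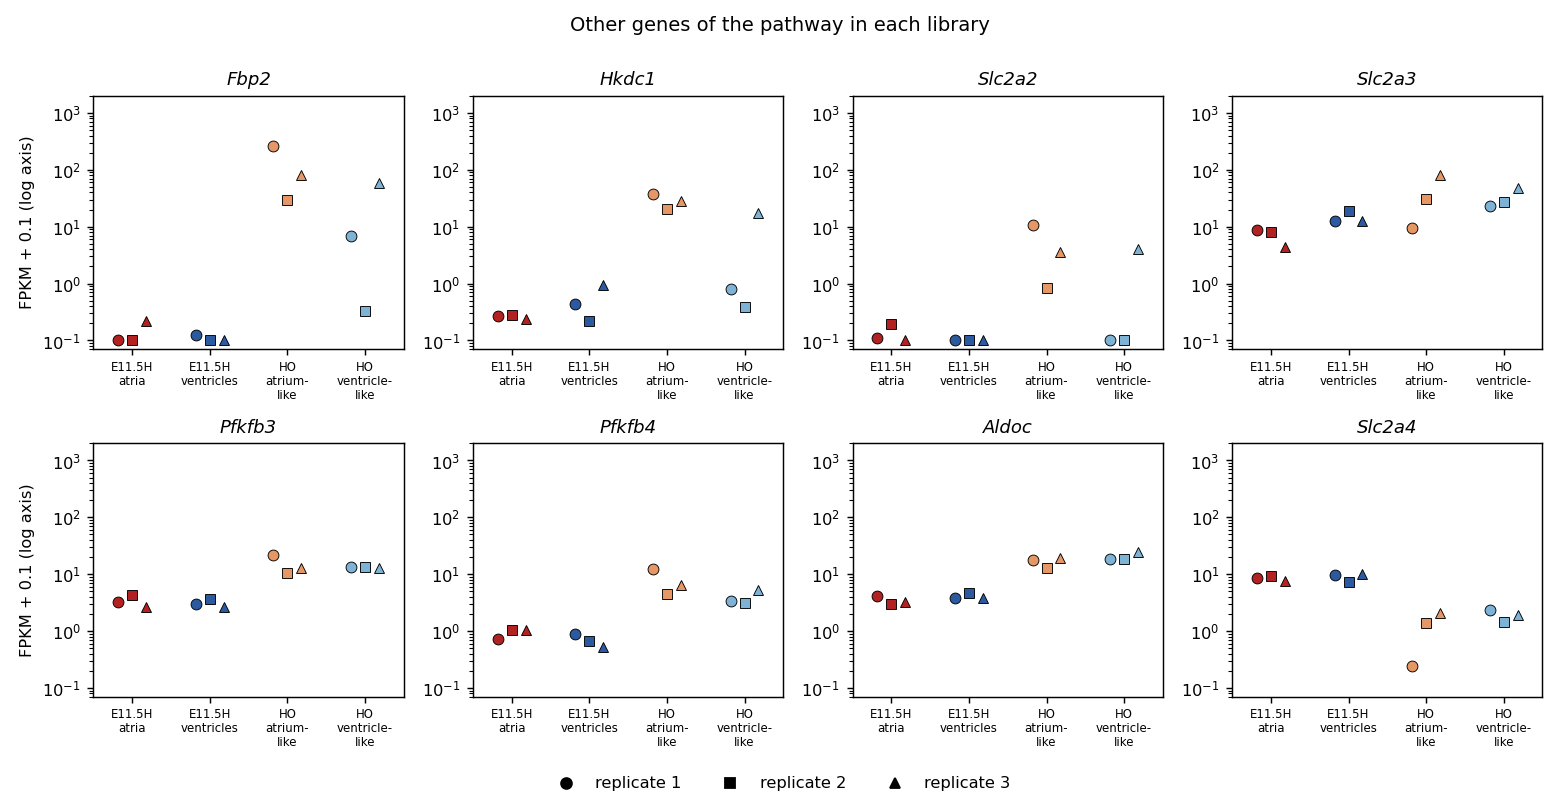
Level of 8 other genes of the pathway (y axis, FPKM plus 0.1 on a log axis) in each library by group (x axis). Points are libraries and shapes are replicates. Fbp2, Hkdc1 and Slc2a2 reach their highest levels in atrium-like parts and in ventricle-like replicate 3, Pfkfb3, Pfkfb4 and Aldoc sit higher in all HO libraries, Slc2a4 sits lower, and Slc2a3 overlaps between E11.5H and HOs.

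The hypoxia response list was higher in HOs than in E11.5H, unlike most of the 10 genes. Of its 14 genes, 12 were higher when atrium-like parts were set against atria and 9 when ventricle-like parts were set against ventricles, and 0 were lower. Over all genes tested, 19.0% and 15.7% were called higher in these comparisons, in that order, and 12.5% and 13.8% lower. Egln3, a prolyl hydroxylase that senses oxygen, was at 2.06 to 6.28 FPKM in E11.5H and 102 to 128 FPKM in HOs, and Vegfa was at 4.43 to 12.6 FPKM in E11.5H and 36.1 to 74.4 FPKM in HOs. Among the 5 glycolysis genes with ACGTG upstream, Hk2 was higher in both HO parts and Ldha in atrium-like parts. Pfkm was lower in atrium-like parts, and Slc2a1 and Aldoa were not called in either comparison. Of the genes without ACGTG, Pfkl was higher in atrium-like parts, and Hk1, Pgam2, Eno3 and Ldhb were lower there. The part of the motif in these differences was not tested. In pyruvate handling (10 genes), Pdk4, a kinase that shuts pyruvate out of the mitochondrion's acetyl-CoA route, was higher in HOs (2.19, SE 0.30, and 2.88, SE 0.27, edgeR adjusted p = 0.0051 and 0.0021). Pdhb, Dlat and Pdha1, subunits of pyruvate dehydrogenase, and Pdk3 were lower in both HO parts, with Pdhb at -1.20 (SE 0.13) and -1.0003 (SE 0.16).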

How the data were processed

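Total RNA of 12 libraries was measured by RNA-seq. According to the labels and methods, the reads were aligned with STAR to GRCm38 (mm10), and the authors deposited expected counts (fragment numbers per gene, of which 23.8% are not whole) and FPKM values. The STAR version, the counting tool, the annotation release and the use of strand are not given in the sources used here, and the labels and methods differ on the library kit. Here the expected counts were rounded and tested with edgeR 4.0.16 in R 4.3.3 (TMM scaling, filterByExpr with a minimum count of 10, quasi-likelihood test). P-values were adjusted over all genes tested by the Benjamini-Hochberg method, and calls were made at an adjusted p under 0.05. Each comparison was fitted on its own 6 libraries and the interaction on all 12. The methods call the HO replicates biological, and neither labels nor methods tie E11.5H replicates to separate litters, so p-values measure only the spread between these libraries. Isoform ratios are log2 ratios of FPKM, tested by exact permutation (two-sided, 3 against 3, smallest p 0.1). All 10 genes, the isoform partners and called genes of the other pathway list were named, save 1 gene that is not reported here, and examples from the hypoxia and pyruvate lists were picked after their values were seen. The members and lists were chosen with earlier results of these data known. DESeq2 1.42.0, limma 3.58.1 and other scalings, filters and left-out libraries served as alternatives. Scripts were tested on simulated data. Libraries held 23971258 to 30540993 fragments.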

Additional observations from a re-analysis of the deposited data

Results flagged for a closer look

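Several values had opposite chamber orders in E11.5H and HOs. For Pgam2 (-2.36) and Eno3 (-1.65), values are the log2 chamber difference in HOs minus that in E11.5H. By FPKM every atrial library lay above every ventricular one in E11.5H, and the reverse held for all HO libraries. The edgeR interaction did not pass (adjusted p = 0.28 for both). The E11.5H difference of Eno3 was only 0.04 and was not called (edgeR adjusted p = 0.76). Neither gene was called between HO parts (edgeR adjusted p = 0.75 for both). The chamber order of 4 of the 5 isoform ratios was also opposite, without overlap, with a difference of -2.12 for Pfkm to Pfkl, -2.04 for Ldhb to Ldha, -1.96 for Eno3 to Eno1 and -2.81 for Pgam2 to Pgam1, while that of Hk2 to Hk1 overlapped between chambers in both tissues. Adm, adrenomedullin, was the gene of the hypoxia list that passed the interaction (-2.47, edgeR adjusted p = 0.033). It was at 25.0, 23.3 and 21.1 FPKM in atria and 3.96, 4.36 and 6.75 FPKM in ventricles, and at 28.6, 41.4 and 39.5 FPKM in atrium-like and 63.7, 49.7 and 42.1 FPKM in ventricle-like parts.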

How the results depend on the processing

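Scaling libraries to the 16 cardiomyocyte genes moved the median difference over all genes to 0.52 (E11.5H chambers), 1.58 (HO parts), 4.08 (atrium-like against atria), 3.03 (ventricle-like against ventricles) and 1.06 (interaction), and the calls to 8305, 1547, 14311, 13775 and 11 genes, with 10 of the 10 glycolysis genes called in ventricle-like parts. It reversed Pfkm (0.50), Aldoa (0.020) and Ldhb (0.17) between E11.5H chambers, and Hk1 (0.80), Hk2 (1.08), Pfkm (0.63), Aldoa (1.51), Ldha (1.59) and Ldhb (0.16) between HO parts. It also reversed Hk1 (2.26), Pfkm (2.70), Pgam2 (0.18), Eno3 (1.06) and Ldhb (1.78) in atrium-like parts against atria, and Hk1 (1.12), Pfkm (2.58), Pfkl (2.64), Pgam2 (1.59), Eno3 (1.65), Ldha (2.71), Ldhb (1.78) and Slc2a1 (2.67) in ventricle-like parts against ventricles, and Pfkm (0.13) in the interaction.

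Values near 0 changed sign elsewhere. Between E11.5H chambers Pfkm was 0.00051 with limma-voom, 0.065 and 0.067 with limma on log2(FPKM + 1), with or without a filter, and log2(FPKM + 0.1), 0.0031 without atria replicate 3, and ran from -0.061 to 0.051 without 1 library. Between HO parts Slc2a1 was -0.10 with limma-voom, -0.28 with limma on FPKM under each setting, and lay between -0.59 and 0.33 without 1 library, the former without atrium-like replicate 3. There Pfkl was -0.0033 with limma on FPKM and ran from -0.081 (without atrium-like replicate 1) to 0.35, and Ldha from -0.21 to 0.012 (without atrium-like replicate 2). In atrium-like parts against atria Slc2a1 ran from -0.084 (without atrium-like replicate 3) to 0.84, and the interaction of Hk1 was -0.027 or -0.060 with limma on FPKM.

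One fit over all 12 libraries left 1 of the 10 genes and 32 genes called between E11.5H chambers, and a required log2 fold change over 1 left 2 and 712, and 2859 genes in ventricle-like parts. DESeq2 called 62 genes between HO parts and 543 in the interaction, 5 of the 10 among them, and limma-voom called 12 in the interaction. Leaving out 1 library gave 6 to 8, 3 to 9 and 1 to 7 of the 10 genes called between E11.5H chambers, in atrium-like and in ventricle-like parts (1287 to 1990, 1703 to 7258 and 1362 to 6099 of all genes), 0 between HO parts, and 2 to 234 of all genes in the interaction. Without atrium-like and ventricle-like replicate 2 together, 293 genes passed the interaction, Eno3 among them (-2.19, edgeR adjusted p = 0.036). No ratio changed direction without 1 library, and no ratio could pass 0.05 at these group sizes.

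Same-numbered E11.5H chambers deviated together with r of only 0.0077 to 0.033. Same-numbered HO parts had r of 0.040, 0.554 and 0.329, and HO parts of different number had r from -0.623 to 0.385. Atrium-like replicates 2 and 3 correlated best with the same number, and atrium-like replicate 1 with ventricle-like replicate 3 (0.385). Whether replicate numbers pair the HO parts is thus not settled, and the main fits used no pairing. With a replicate block, 8, 0, 6 and 2 of the 10 genes were called in the 4 comparisons (Hk2 and Ldha lost in atrium-like parts, edgeR adjusted p = 0.0504 and 0.059) and 0 in the interaction, with 3087 genes called in atrium-like parts, 2602 in ventricle-like parts and 5 in the interaction, and Slc2a1 was -0.10 between HO parts. Depth limits Fbp2 in E11.5H, where it rests on at most 5 fragments per library, so no fold is given for it.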
